A study of Drosophila melanogaster with 2 samples.

Results

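Genes of the Polycomb and trithorax groups were examined for binding of the transcription factor Spalt major (Salm) in fly embryos. The 10 genes were 7 Polycomb group genes (ph-p, ph-d, Pc, Psc, Su(z)2, E(z) and esc) and 3 trithorax group genes (trx, brm and ash1), out of 13945 annotated protein-coding genes. They were selected on their thresholded, pooled and replicate peak summits in these libraries, so their peak counts, signals and ranks are given as descriptions without tests. A gene was called bound when the summit of a thresholded peak lay in its window, which runs from 2 kb before the annotated start through to the 3′ end. By that definition 6 of the 10 genes were bound, and 21.4% of all protein-coding genes were.

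The data came from chromatin immunoprecipitation followed by sequencing (ChIP-seq) of whole Drosophila melanogaster embryos aged 0 to 16 h. The embryos belonged to a transgenic line in which salm carried GFP at its C-terminal end, and their chromatin was sonicated to 200 to 800 bp. The sample descriptions give an antibody against GFP for the precipitation, whereas the antibody label of the samples reads salm. The text follows the former, and a part of untagged Salm in the signal was not tested. There was 1 group with 2 biological replicates, no second genotype, stage or treatment, and an average over all tissues of the embryo. Per the deposited descriptions, peaks were called against a control on each replicate and on both pooled. The descriptions also give a thresholded list made with the irreproducible discovery rate, a measure of how well peak ranks repeat between replicates. That control was not analysed here, and a signal that an untagged line would give at the same places was not measured. Neither the promoter that drives the fusion nor the presence of untagged salm is stated in the labels.

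The thresholded list held 3421 peaks with signals between 141 and 2154 (median 206). The list from pooled replicates and the list of each replicate held 30000. The signal is the authors' peak caller's own strength value, and its scale differs between lists, so ranks (1 for the strongest peak of a list) are used across lists. The labels give no number of reads, and the depth behind each value is unknown. The 3421 thresholded peaks are the strongest 3421 of the pooled list, so membership amounts to a cut on pooled signal. Of their summits, 3379 lay inside a peak of each replicate. No peak was identical between the replicate lists.

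Polycomb group proteins keep developmental genes silent, and trithorax group proteins counteract them and keep such genes active. Most Polycomb proteins act in 2 kinds of complex: Polycomb repressive complex 1 (PRC1) compacts chromatin and ubiquitylates histone H2A, and Polycomb repressive complex 2 (PRC2) methylates histone H3. Trithorax group proteins include histone methyltransferases and subunits of chromatin remodelling complexes. Salm is a zinc-finger protein that takes part in patterning the embryonic head and tail, the trachea and sensory organs.

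Among the PRC1 genes, ph-p and ph-d carried most of the peaks. They are tandem copies on chromosome X that encode Polyhomeotic proteins, sterile alpha motif proteins through which PRC1 units join each other. The 2 annotated proteins (1589 residues for ph-p and 1537 for ph-d) were identical at 1354 of 1513 aligned positions without gaps, or 89.5%. Both genes lie on the minus strand in dm6, ph-p (FBgn0004861) at 2126210-2138371 and ph-d (FBgn0004860) at 2115727-2123286. The 200 bases around the strongest summit of each copy are shown because these windows hold the highest signals of the pair, and the window of the innermost ph-p summit is shown because it holds the word GCCAT. All are printed 5′ to 3′ on the minus strand of the dm6 assembly, from the Release 6 sequence in RefSeq, at chrX:2137234-2137433, chrX:2123986-2124185 and chrX:2134325-2134524. Capitals mark a match to one of the searched words described further on, and the first 2 windows hold none.
ph-p, 1037 bp into the gene: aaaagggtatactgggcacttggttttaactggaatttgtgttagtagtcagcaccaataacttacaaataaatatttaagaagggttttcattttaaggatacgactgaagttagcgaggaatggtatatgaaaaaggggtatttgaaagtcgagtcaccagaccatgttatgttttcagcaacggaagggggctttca
ph-d, 800 bp upstream of the gene: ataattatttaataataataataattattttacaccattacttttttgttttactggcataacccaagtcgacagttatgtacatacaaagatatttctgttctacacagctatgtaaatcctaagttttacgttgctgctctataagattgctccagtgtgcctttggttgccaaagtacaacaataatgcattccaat
ph-p, 3946 bp into the gene: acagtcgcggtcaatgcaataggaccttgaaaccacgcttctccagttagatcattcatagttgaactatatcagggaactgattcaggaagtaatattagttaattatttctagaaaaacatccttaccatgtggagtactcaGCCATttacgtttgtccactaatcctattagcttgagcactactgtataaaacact

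The window of ph-p held 4 thresholded summits. The strongest lay in an intron, 1037 bp into the gene and 479 bp upstream of an internal transcription start site (TSS), with a signal of 1527 and rank 20. It ranked 21 in replicate 1 (signal 927) and 12 in replicate 2 (signal 634). The next lay in the 5′ untranslated region (5′ UTR), 458 bp into the gene, with a signal of 1402 and rank 26, and ranked 24 and 25 in the replicates. Both summits were thus among the strongest 30 peaks in each replicate as well as in the thresholded list. The other 2 summits were weaker and lay deeper in an intron. The one at 3025 bp had a signal of 451 (rank 402, and 385 and 477 in the replicates). The one at 3946 bp had a signal of 232 (rank 1395) and differed more between replicates, with ranks 1134 and 2756. The log2 ratio of its replicate 1 to its replicate 2 signal was 1.42, inside the range of 0.09 to 1.58 that spans the 5th to 95th percentile of the 3379 thresholded summits found in both replicates (median 0.76). The other 3 pooled summits of ph-p were at or below a signal of 45.1 (rank 19618), so no summit of intermediate strength was listed there.

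The strongest ph-p peak was set beside its neighbours in the ranking. The 2 just above it were nearest to the TSS of Trl, the gene of the GAGA factor (signal 1589, rank 18, in an intron), and of Chro, which encodes the chromatin protein Chromator (signal 1541, rank 19, in the 5′ UTR). The 2 just below were nearest to CG5611 (signal 1497, rank 21) and CG32772 (signal 1473, rank 22).

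At ph-d the strong summits lay upstream of the gene instead of inside it. The strongest was 800 bp upstream, with a signal of 764 and rank 126, and ranked 178 in replicate 1 (signal 403) and 73 in replicate 2 (signal 356). A second summit was listed in the same interval, 1008 bp upstream, with a signal of 344 (rank 680, and 888 and 570 in the replicates). The third lay in the 5′ UTR, 133 bp into the gene, with a signal of 176 and rank 2319, and its replicate ranks were 2315 and 3106. The strongest ph-d summit was therefore weaker than both ph-p summits near the start in each of the 2 replicates and in the pooled list. Its log2 ratio of replicate 1 to replicate 2 signal was 0.18, against 0.55 and 0.78 for the 2 ph-p summits. A pooled summit 1002 bp into ph-d stayed below the threshold with a signal of 116 (rank 4897).

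Few genes of similar size held as many summits as either copy. Of 880 protein-coding genes with a window within 25% of that of ph-p, 8 (0.909%) held at least 4 thresholded summits, and 341 (38.8%) held any. Of 1407 genes with a window like that of ph-d, 26 (1.85%) held at least 3, and 412 (29.3%) held any. Together with trx, 3 of the 10 genes held 3 or more summits, where 2.07% of all protein-coding genes did. Among the strongest 1710 peaks 1 of the 10 did, and within 1 kb of a TSS 0 did. The choice of these genes rested on the same summits, so these shares describe them and carry no test.

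The summits of the 2 copies were compared with the sequence they share. Aligned blocks covered 40.5% of the ph-p window and 60.0% of the ph-d window. The longest block (4480 bp, 92.0% identical) lies in the downstream part of both genes and held no pooled summit. Near the starts, blocks of 529 bp (90.7% identical), 387 bp (70.5%) and 358 bp (81.0%) lie inside ph-p, and the same blocks lie upstream of ph-d or across its start. The sequence between these blocks did not align, and the 3 strongest summits of the pair sat there. Their peaks were wider and reached into the blocks. Aligned sequence made up 37.3% of the ph-p peak at 1037 bp and 75.3% of that at 458 bp. It made up 49.0% of the ph-d peak with its summit 800 bp upstream. The strongest ph-p summit lay in a stretch of 208 bp that is 15 bp long in ph-d. The ph-p summit at 458 bp and the strongest ph-d summit lay in matching stretches between the same pair of blocks, 98 bp long in ph-p and 209 bp in ph-d. The second ph-d summit lay inside the 358 bp block. Counted from the block start without allowing for gaps, it falls at about position 385 of ph-p. That position is inside the ph-p peak whose summit is at 458 bp. The 2 innermost ph-p peaks had no aligned counterpart in the ph-d window at all, and the ph-d summit at 133 bp lay just past the end of the 529 bp block.

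Near-identical copies can split or lose reads when they are aligned, so the uniqueness of the sequence was counted. Of the 50-base words of the windows, 74.1% in ph-p and 75.8% in ph-d occur once in the genome. The ph-p window also holds an FB transposon of 1446 bp, so a repeated word need not be shared with the other copy. Inside the peaks of all 7 ph-p and ph-d summits every 50-base word occurs once. The 4480 bp block without a summit is the largest stretch that the copies share, and the labels do not say how its reads were aligned.

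**Figure D1:**
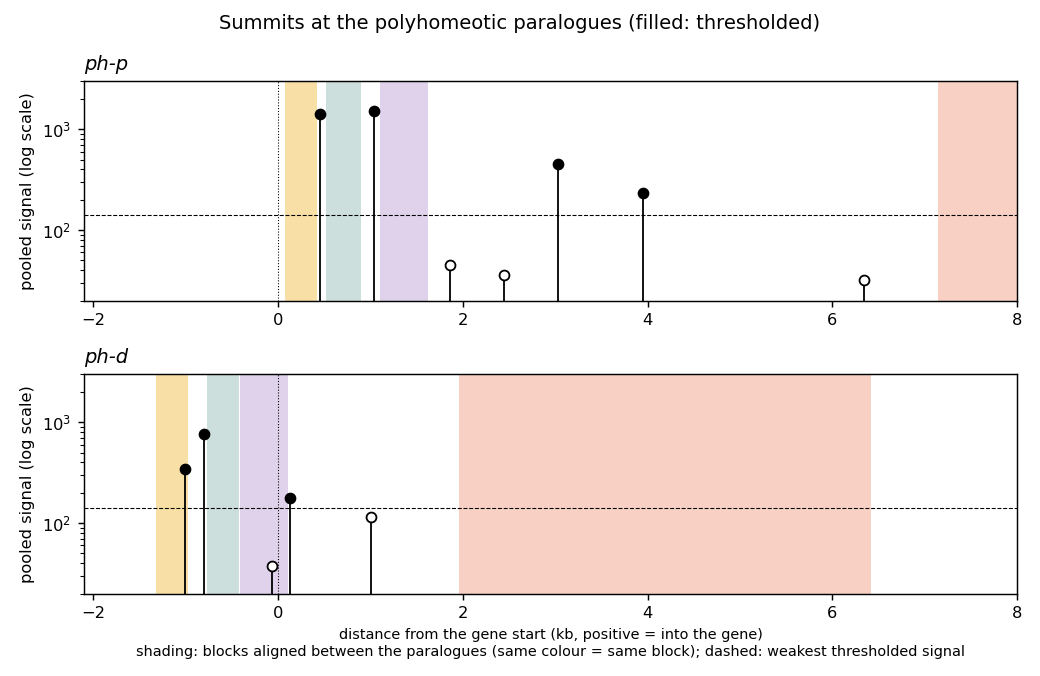
Pooled signal (log scale) of every pooled summit in the windows of ph-p (top) and ph-d (bottom) against its distance from the gene start in kb; filled points are thresholded, open points are not, the dashed line is the weakest thresholded signal (141), and bands of one colour are the same aligned block in both copies. The strongest summits of ph-p (1527 and 1402) and ph-d (764) stand in the gaps between coloured bands, which lie inside ph-p and upstream of ph-d.

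The remaining PRC1 genes had weaker summits or none above the threshold. Psc and Su(z)2, neighbouring genes on arm 2R, encode related RING-finger proteins of PRC1, and Pc encodes the chromodomain protein that binds methylated histone H3. Psc (FBgn0005624, 12965997-12980994, minus strand) held 1 thresholded summit, 5415 bp into the gene in an intron, with a signal of 217 and rank 1558. It ranked 2088 in replicate 1 (signal 119) and 1465 in replicate 2 (signal 87.1). The Psc window held 7 more pooled summits below the threshold, of which the strongest (signal 102, rank 6087) lay 375 bp into the gene. Of 769 genes with a window of similar length, 337 (43.8%) were bound.

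Su(z)2 (FBgn0265623, 12996501-13007911, plus strand) held no thresholded summit. Its 5 pooled summits reached a signal of 117 (rank 4820), 805 bp into the gene, and 99.0 (rank 6345) 11 bp past the gene start. The stronger of these ranked 5069 in replicate 1 and 5017 in replicate 2. A peak with a signal of 1461 and rank 23 lay outside both windows, 4196 bp upstream of Psc and 11311 bp upstream of Su(z)2 (12985041-12985389), with its summit 177 bp upstream of the TSS of lncRNA:CR44339. It ranked 23 and 24 in the replicates.

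Pc (FBgn0003042, arm 3L, 21306138-21318020, minus strand) was the gene just outside the threshold. Its single pooled summit lay 49 bp upstream of the gene, with a signal of 125 and rank 4316. The replicates differed: that peak ranked 3139 in replicate 2 (signal 57.7), inside the first 3421, and 7126 in replicate 1 (signal 61.0). The member summit just inside the threshold was one of trx with a signal of 143 and rank 3372. An inserted roo transposon fills 9101 bp of the Pc window, and 34.9% of its 50-base words occur once in the genome, whereas every word of the peak at the start does. A peak with a signal of 1610 and rank 17 (21304408-21304728) lay 1575 bp past the end of Pc, 95 bp downstream of the TSS of CG11309, and ranked 15 and 21 in the replicates.

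Of the PRC2 genes, E(z) was bound and esc was not. E(z) encodes the catalytic histone methyltransferase of the complex, and esc encodes its WD40 subunit. E(z) (FBgn0000629, arm 3L, 10634575-10638130, minus strand) held 1 summit in its 5′ UTR, 82 bp from the gene start, with a signal of 626 and rank 191. It ranked 195 in replicate 1 (signal 385) and 190 in replicate 2 (signal 241), and no weaker pooled summit was listed in the window. The TSS of Cnep1r2, transcribed the other way, is 98 bp from that summit, so the peak cannot be given to one of the genes. Of 3459 genes with a window of similar length, 739 (21.4%) were bound. The window of esc (FBgn0000588, arm 2L, 11827204-11829405, minus strand) held no summit in any of the 4 lists. Its nearest thresholded summit lay 10607 bp downstream, with a signal of 305 and rank 849. Of 5587 genes with a window of similar length, 969 (17.3%) were bound.

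Among the trithorax group genes, trx held 5 thresholded summits, brm 1 and ash1 none. The count at trx was 2 among the strongest 1710 peaks and 1 within 1 kb of its TSS. The window of the strongest trx summit is shown because it is the strongest in the windows of these 3 genes, and that of the weakest trx summit because it holds matches to 2 searched words. The window at brm is shown as the only thresholded summit of that gene, and the sequence just past the end of ash1 because the strongest peak of the whole list lies there. All are on the minus strand of dm6, 5′ to 3′, at chr3R:14283779-14283978, chr3R:14285119-14285318, chr3L:15982890-15983089 and chr3L:19590525-19590710. Capitals mark GAGAG read on the other strand (CTCTC and its overlaps) and, at the weakest trx summit, also GCCAT read on the other strand (ATGGC).
trx, 3024 bp into the gene: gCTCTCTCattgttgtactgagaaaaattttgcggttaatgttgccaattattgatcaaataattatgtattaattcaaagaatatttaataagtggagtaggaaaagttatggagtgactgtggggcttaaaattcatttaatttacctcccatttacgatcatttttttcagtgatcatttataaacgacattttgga
trx, 1684 bp into the gene: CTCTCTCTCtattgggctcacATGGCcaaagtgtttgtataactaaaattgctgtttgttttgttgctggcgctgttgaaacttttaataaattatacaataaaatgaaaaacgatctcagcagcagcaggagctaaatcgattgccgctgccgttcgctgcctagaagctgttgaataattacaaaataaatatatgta
brm, 121 bp upstream of the gene: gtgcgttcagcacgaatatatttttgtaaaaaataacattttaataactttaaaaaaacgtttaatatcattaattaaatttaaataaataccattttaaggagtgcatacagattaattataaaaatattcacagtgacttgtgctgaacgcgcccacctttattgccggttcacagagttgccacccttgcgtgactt
ash1, past its 3′ end: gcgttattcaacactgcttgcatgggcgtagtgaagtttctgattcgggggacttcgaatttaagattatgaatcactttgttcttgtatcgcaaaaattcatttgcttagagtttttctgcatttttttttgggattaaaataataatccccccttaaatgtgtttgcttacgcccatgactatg

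The gene trx encodes the founding member of the trithorax group, a histone H3 methyltransferase. It lies on arm 3R (FBgn0003862, 14263358-14286903, minus strand) and has 1 annotated TSS. Its strongest summit lay 3024 bp into the gene in an intron, with a signal of 1004 and rank 63, and ranked 57 in replicate 1 (signal 660) and 78 in replicate 2 (signal 349). A second intronic summit at 8831 bp had a signal of 299 (rank 878, and 873 and 953 in the replicates). Both held nearly the same place in each replicate. The other 3 were weak: 143 (rank 3372) at 1684 bp, 156 (rank 2818) in the 5′ UTR at 84 bp, and 172 (rank 2417) 1946 bp upstream. The last lies 222 bp upstream of the TSS of red, the next protein-coding gene, and was the only member summit nearest to the TSS of another gene. The summit at 84 bp was the only one of the 15 thresholded member summits that fell outside the first 3421 peaks of a replicate, with ranks 3884 and 3648. In trx 10 more pooled summits lay below the threshold, the strongest with a signal of 99.0 (rank 6342). Of 545 genes with a window of similar length, 11 (2.02%) held at least 5 thresholded summits, and 241 (44.2%) held any.

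The gene brm encodes the ATPase of the BAP and PBAP remodelling complexes. Its only thresholded summit (FBgn0000212, arm 3L, 15970082-15982869, minus strand) lay 121 bp upstream of the gene, with a signal of 548 and rank 258. It ranked 224 in replicate 1 (signal 366) and 356 in replicate 2 (signal 181). The TSS of Arl1, which encodes a small GTPase of the Golgi, is 145 bp away on the other side, so this peak, like that of E(z), lies at a pair of divergent starts. The other 4 pooled summits of brm had signals of 88.6 or less (rank 7554 or lower). Of 850 genes with a window of similar length, 344 (40.5%) were bound.

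The window of ash1, which encodes another histone H3 methyltransferase, held no summit in any list (FBgn0005386, arm 3L, 19590773-19598755, minus strand). Yet the strongest peak of the whole thresholded list (19590448-19590795, signal 2154, rank 1 in both replicates) had its summit 162 bp past the end of the gene. The peak reached 23 bp into ash1, and its summit lay 87 bp upstream of the TSS of CG14100. Whether ash1 counts as bound therefore turns on the rule: with an overlap of 1 bp in place of the summit it did. Of 1339 genes with a window of similar length, 403 (30.1%) were bound.

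**Figure D2:**
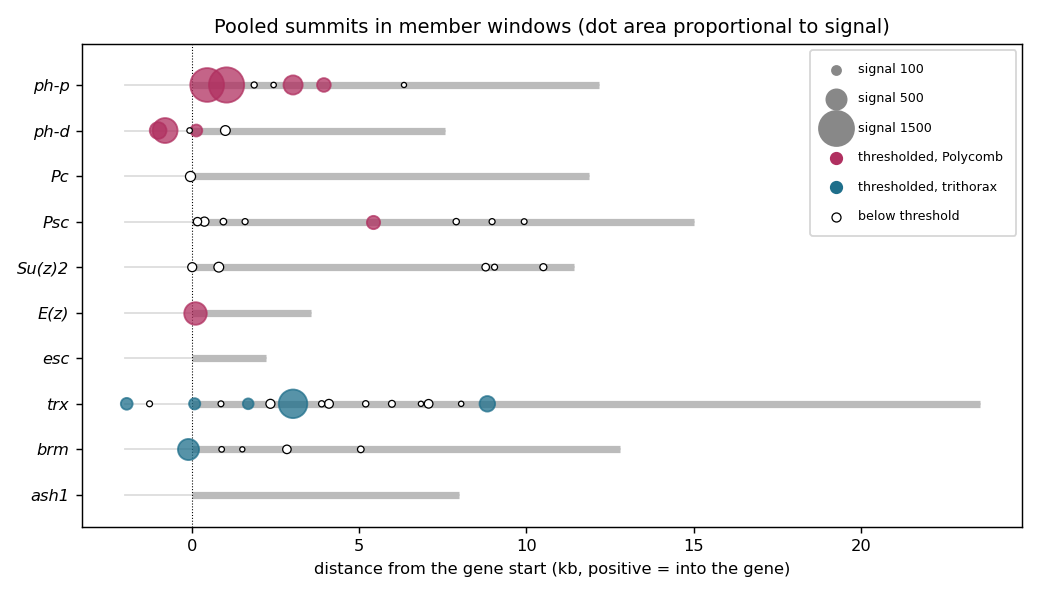
Position of each pooled summit relative to the gene start (kb, positive into the gene) in the windows of the 10 genes, with dot area proportional to pooled signal; filled dots are thresholded (red for Polycomb, blue for trithorax) and open dots are below the threshold, grey bars are genes and thin lines the upstream 2 kb. The largest dots lie in the first 4 kb of ph-p and trx and upstream of ph-d, and esc and ash1 carry none.

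The Polycomb and trithorax genes were then set against each other. Of the 7 Polycomb genes, 4 were bound with 9 summits, and of the 3 trithorax genes 2 were bound with 6 summits. The Polycomb windows held 1.16 summits per 10 kb and the trithorax windows 1.19, where the windows of all protein-coding genes held 0.348. These densities rest on few genes. Of the 9 Polycomb summits, ph-p held 4 and ph-d 3, and of the 6 trithorax summits trx held 5. The strongest signal per bound gene ran from 217 to 1527 (median 695) in the Polycomb group and from 548 to 1004 (median 776) in the trithorax group, so the trithorax range lay inside the Polycomb range. PRC1 and PRC2 likewise overlapped, with 3 of 5 and 1 of 2 genes bound. With 3 genes on one side, and genes not being replicates, no test was made.

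The pooled list, which contains all the thresholded peaks, had a summit in 8 of the 10 genes and in 61.4% of protein-coding genes. Of the 10 genes, 7 held a pooled summit below the threshold, and E(z), esc and ash1 held none. The counts were 8 in replicate 1, against 61.6% of all protein-coding genes, and 8 in replicate 2, against 65.5%. The 10 windows held 47 pooled summits, 32 of them below the threshold, and 54 and 45 summits of the replicate lists. The esc and ash1 windows were the ones without any summit in these lists.

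The 15 thresholded summits were spread over the signal range, with 3 in the strongest 100 peaks and 7 in the strongest 500. All 15 lay inside a peak of each replicate, and 14 ranked within the first 3421 of both. The thresholded peaks are the strongest of a list pooled from these same replicates, so part of this agreement is built in. Of all 3421 thresholded summits, 3379 lay inside a peak of each replicate. One of the strongest 100 summits lay in the gene or within 5 kb of it for 5 of the 10 genes (ph-p, Pc, Psc, trx and ash1), where 2.03% of protein-coding genes did. This last count was made after the peaks beside Pc, Psc and ash1 had been seen, and in those 3 genes the TSS nearest to the peak belongs to another gene.

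**Figure D3:**
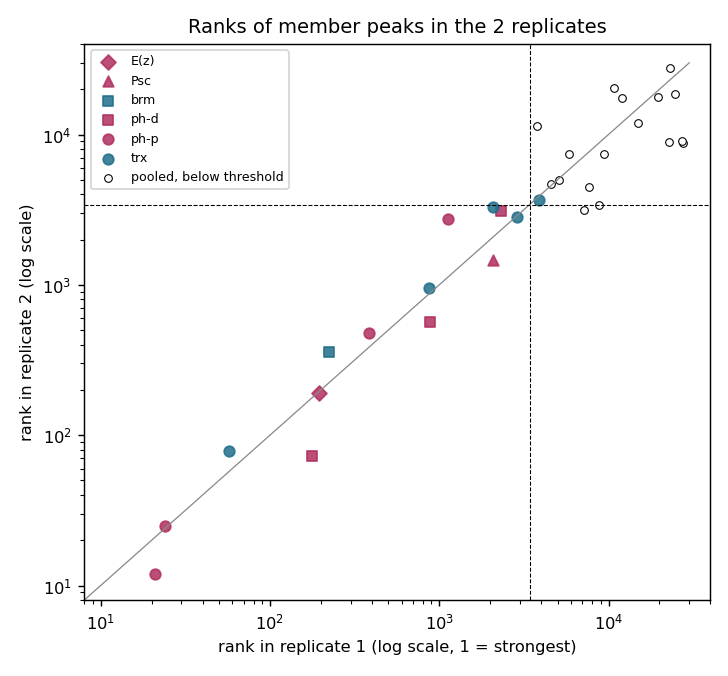
Rank of the peak at each member summit in replicate 1 (x axis) and replicate 2 (y axis), both on log scales with 1 the strongest; filled symbols are thresholded summits by gene, open circles are pooled summits below the threshold that lie in a peak of both replicates, dashed lines mark rank 3421 and the diagonal equal ranks. The filled symbols follow the diagonal from ranks 21 and 12 (ph-p) to ranks 3884 and 3648 (trx), and the ph-p summit with ranks 1134 and 2756 lies farther from it than most.

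The member summits lay in introns, 5′ UTRs and intergenic sequence, and none lay in coding sequence, which held 10 (0.292%) of all 3421. Of the 15, 7 lay in introns, 4 in 5′ UTRs and 4 in intergenic sequence. Over all thresholded summits, 51.5% lay in introns, 10.4% in 5′ UTRs and 33.4% in intergenic sequence. Within 500 bp of a TSS lay 7 member summits and 46.9% of all, and 7 lay over 1 kb from one, as did 42.3%. For 14 of them the nearest TSS was that of the gene itself. The GC content of the 200 bp around the summits had a median of 31.0% (25% at E(z) to 43.0% at the ph-d 5′ UTR), next to a median of 34.5% with quartiles of 30% and 40.5% over all thresholded summits.

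Short words read by DNA-binding proteins that act with Polycomb and trithorax proteins or at promoters were counted in the same 200 bp windows, on both strands. GAGAG, read by the GAGA factor, was in 3 of the 15 windows (20%), at Psc and at the trx summits at 3024 and 1684 bp, and in 23.1% of all thresholded windows. GCCAT, the core read by the recruiter Pho, was in 3 (20%), at ph-p 3946 bp, at Psc and at trx 1684 bp, and in 24.7% of all. TATCGATA, read by the promoter factor DREF, was in none and in 2.66% of all. GGTCACACT, read by the promoter factor M1BP, was in 1 (6.67%), at the trx 5′ UTR summit, and in 1.7% of all. The windows of the strongest ph-p and ph-d summits printed above hold none of the 4 words. Some calls changed when the window was centred on the replicate summits. GAGAG then appeared at trx 8831 bp in both replicates, and at E(z) and the trx 5′ UTR in replicate 2. GCCAT appeared at E(z) in replicate 1, and GAGAG was absent at trx 3024 bp in replicate 2. The other matches named here stayed in both replicates. A match is a run of letters and not a measured site, and no match says only that these letters are not in that window.

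Further genes of both groups were counted in the same way, by role. Of 25 other Polycomb genes, 8 (32.0%) were bound with 16 summits, the median of their strongest signals was 213, and 21 held a pooled summit. Of 29 other trithorax genes, 8 (27.6%) were bound with 20 summits, the median was 336, and 23 held a pooled summit. The bound shares stand next to 21.4% of all protein-coding genes, and the counts with a pooled summit next to 61.4%. These shares are not matched for window length, and longer windows are bound more often. Among genes with windows like those of esc (4202 bp), ash1 (9983 bp) and trx (25546 bp), 17.3%, 30.1% and 44.2% were bound. An excess of the wider lists over genes of their own length was not tested. None of the list counts carries a test. By role, 4 of 7 genes for DNA-binding recruiters were bound, 1 of 5 for PRC1 or its close partners, 1 of 6 for PRC2, 0 of 2 for the deubiquitinase PR-DUB and 2 of 5 further Polycomb genes. On the trithorax side, 3 of 10 for BAP and PBAP remodelling, 0 of 11 for the COMPASS methyltransferase family and 5 of 8 further genes were bound. Of the 11 COMPASS genes, 8 held a pooled summit below the threshold, where 61.4% of all protein-coding genes held a pooled summit of any strength. On arm 3L no list held a peak beyond position 23150902, although genes reach 28012599. Set1, of the COMPASS family, and vtd, a further trithorax gene, lie in that stretch. Their lack of a summit therefore says little about binding.

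Single genes of these lists reached the strength of the members. Among the other Polycomb genes, Kdm2, a histone demethylase gene, had a signal of 906 (rank 83) at an intronic summit 4281 bp from its TSS. The next was phol, which encodes a relative of Pho, with 837 (rank 103), but the TSS nearest to that summit is that of CG3552. Dsp1, an HMG-box protein gene, followed with 611 (rank 202), nearest to CG9921, and jing, a zinc-finger gene with a window of 121787 bp, had 6 summits of up to 268 (rank 1099), nearest to lncRNA:CR45127. Among the other trithorax genes, Trl led with 4 summits of up to 1589. It was followed by osa, a BAP subunit gene, with 1019 (rank 60), nej, the CBP acetyltransferase gene, with 779 (rank 120), and kis, a chromodomain helicase gene, with 5 summits of up to 353 (rank 646). For osa, nej and kis the TSS nearest to the strongest summit belongs to a long non-coding RNA (lncRNA:CR46035, lncRNA:CR42657 and lncRNA:CR44222). The unbound genes with the longest windows were sxc and Jarid2 among the Polycomb genes, with no pooled summit and one of 87.7. On the trithorax side they were d4, with no pooled summit, and the Mediator subunit gene skd, with 14 pooled summits of up to 127.

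**Figure D4:**
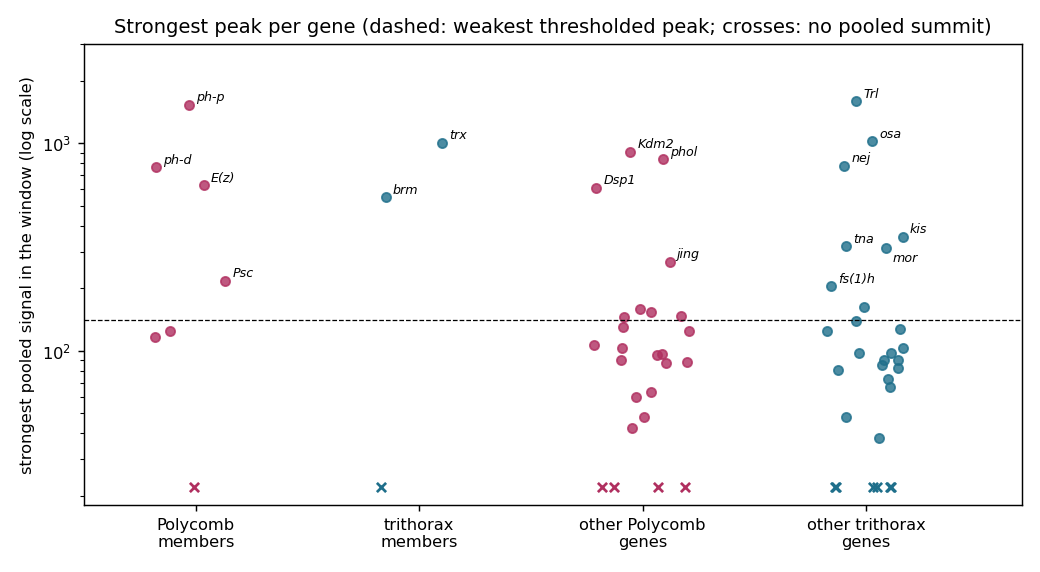
Strongest pooled signal in the window of each gene (log scale) for the Polycomb and trithorax members and the 2 wider lists; points are genes spread sideways for legibility, the dashed line is the weakest thresholded signal (141), crosses at the bottom are genes without a pooled summit, and names are given above a signal of about 200. Trl (1589) and ph-p (1527) lead their groups, and most genes of the wider lists lie below the line.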

How the data were processed

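Per the labels, 2 biological replicates of 1 group were profiled, with coordinates in dm6. The authors called peaks on each replicate and on both pooled, against a control, and deposited for each peak a signal, a −log10 q-value and a summit offset. All 3421 thresholded peaks sit at the ceiling of that q-value (4.08), so it was not used to rank them. The aligner, the peak caller and the irreproducible discovery rate cut-off are not named in the labels or the deposited descriptions. A summit placed at the midpoint of its interval (2101 of 3421 thresholded peaks) locates binding coarsely.

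Summits (start plus offset) were assigned to genes of Ensembl release 115 (FlyBase annotation 6.54) from 2 kb upstream to the gene end, so that a summit may count for several genes. Sequence came from Release 6 of the genome in RefSeq. The 200 bp centred on each summit were searched for words, and 50-base words were counted over the genome. Paralogues were aligned with BLAST+ 2.17.0, and proteins were translated from the annotated coding sequence. Genes of similar length are protein-coding genes whose window is within 25% of that of the member.

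With 1 group, and members and lists chosen with earlier results of these data known, no tests were made. Named genes are all 10 members, the genes owning the TSS nearest to a member summit, up to 4 genes per wider list with the strongest thresholded summit and up to 2 unbound ones with the longest windows, and the genes of the 2 peaks above and 2 below the strongest ph-p peak. CG14100, CG11309, lncRNA:CR44339, Cnep1r2 and Arl1, which lie beside members, and the genes with the TSS nearest to the summits of the wider lists, were named after their values were seen. So were Set1 and vtd. Of 64 symbols, 3 were matched through synonyms. The 8 alternatives changed the gene window, the assignment, the overlap rule, the peak threshold or the replicates used. The counting of summits per gene window was tested on simulated summits, and the search for the nearest TSS on made-up positions. These checks did not cover the other steps. Python 3.11.15, pandas 2.3.3, numpy 2.4.6 and matplotlib 3.10.9 were used.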

Additional observations from a re-analysis of the deposited data

How the results depend on the processing

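Over 10 results and 8 alternatives, 66 of 80 values stayed within 1.5 times the reported one and 14 moved further. With the window cut to 1 kb on either side of a TSS, member summits numbered 7 in place of 15, ph-p summits 2 in place of 4, trx summits 1 in place of 5, genes with 3 or more summits 0 in place of 3, and bound genes of the other Polycomb list 4 in place of 8. With the gene body alone, 1 trithorax member in place of 2 was bound, ph-d held 1 summit in place of 3, and the other Polycomb and other trithorax lists held 4 and 5 bound genes in place of 8 each. With each summit given to the nearest TSS only, these lists held 5 and 4, and with the strongest 1710 peaks the other Polycomb list held 4, trx held 2 summits and 1 member held 3 or more. The counts at trx and of members with 3 or more summits were chosen for this comparison after seeing the data. Under these settings the share of all protein-coding genes called bound also fell, to between 10.2% and 16.1%.

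From 1 replicate at a time (its strongest 3421 peaks), bound members numbered 6 to 7, member summits 14 to 16, Polycomb members 4 to 5, trithorax members 2 to 2, ph-p summits 4 to 4, ph-d summits 3 to 3, trx summits 4 to 5, members with 3 or more 3 to 3, other Polycomb genes 6 to 8 and other trithorax genes 9 to 10. Of all protein-coding genes, 21.3% were bound without replicate 1 and 21.2% without replicate 2. The member gained without replicate 1 was Pc. With an overlap of 1 bp the member gained was ash1. No paired analysis was possible because there was 1 group. Signals have no replicate error of their own, and the unknown read depth limits what the absence of a peak at esc or ash1 can show.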

Other observations

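The word ACAGTGGG was noticed while the strongest windows were read and was counted afterwards. It was in 12 of the 200 bp windows around the strongest 100 thresholded summits (12%), in 84 of the other 3321 (2.53%) and in 414 of the 30000 pooled windows (1.38%). The word was picked from the strongest windows, which raises its share there, and a link with signal was not tested. Among the 15 member windows it was in 1, that of the ph-p summit 458 bp into the gene.

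An FB transposon of 1446 bp lies inside ph-p. None of the 4 thresholded summits of ph-p lies in it.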
